A study of Mus musculus with 2 samples.

Results

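The genes described here encode the nuclear subunits of the mitochondrial respiratory chain and of ATP synthase, in mouse haematopoietic stem cells with and without Wip1. They were chosen by symbol alone: every probe set whose only annotated gene starts with Nduf, Uqcr, Cox4 to Cox8 or Atp5, or is Sdha, Sdhb, Sdhc, Sdhd or Cyc1. The rule gave 180 of 45037 probe sets and 91 of 18193 genes. By complex, 42 genes belonged to complex I (8 of them assembly factors), 4 to complex II, 9 to complex III, 19 to complex IV and 17 to complex V. Ndufa4 and Ndufa4l2 were counted with complex IV, since the Ndufa4 protein, once assigned to complex I, is known as a subunit of cytochrome c oxidase. Of the 91 genes, 86 were detected, meaning that their brightest probe set lay above the median of all probe sets on at least 1 array.

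Oxidative phosphorylation is the route by which mitochondria make ATP from oxygen. Complexes I and II pass electrons from NADH and succinate to coenzyme Q, complex III passes them to cytochrome c, and complex IV passes them to oxygen. Complexes I, III and IV pump protons across the inner membrane as they do so, and complex V, the ATP synthase, uses the return of those protons to make ATP. Quiescent haematopoietic stem cells are known to rely largely on glycolysis and to raise mitochondrial respiration when they enter the cell cycle or differentiate.

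Total RNA was profiled on Affymetrix expression arrays, with 1 array for Wip1 knockout stem cells and 1 for wild-type stem cells. Both samples came from animals of 3 months. Wip1 is the phosphatase made from the Ppm1d gene. The labels do not state the allele, how the cells were sorted, how many animals were pooled or which sex they were. There is no replicate, so no test across arrays could be made, no p-value is given, and every statement is about these 2 samples.

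The error given here is how far probe sets for a single gene lie apart, with an SD of 0.22 on the log2 scale across 5084 genes (0.17 over the 48 members with at least 2 detected probe sets). It holds no variation between animals or arrays. Intensities are the deposited values on a linear scale, and a difference is the log2 value in the knockout minus that in the wild type after the arrays were centred on each other. Probe sets bind with different strength, so intensities are compared between arrays and not between genes. In RNA from a whole sample, fewer cells of a type and less RNA per cell cannot be told apart.

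The samples differed in other ways. The brighter Ppm1d probe set read 160 in knockout RNA and 167 in wild-type RNA. Whether it lies within the deletion is not known from the labels, so it does not check the genotype. Xist had 3778 in the knockout against 6228, and the Y-linked Eif2s3y 149 against 31.8, so transcripts that depend on sex differed between the samples. Of a fixed list of 13 stem and progenitor cell markers, all 11 measured were detected, 5 lower and 6 higher. They ran from Slamf1 at -0.66 and Tek at -0.59 to Cd34 at 0.43, Hlf at 0.70 and Flt3 at 1.26. Meis1 was counted as lower at -0.20, but its other detected probe set read 1.82. Their median of 0.01 was that of Fgd5, which held the same deposited value on both arrays. All 7 neutrophil markers measured were above the 75th percentile in both samples, 6 lower and 1 higher, with a median difference of -0.08. Their summed intensity was 10249 for the knockout and 12485 for the wild type. Mpo alone had 3665 against 5498 (-0.57), while S100a8 differed by -0.03 and Ltf by 0.11. For monocytes and macrophages 6 of 7 markers were detected, with a median difference of 0.44 (summed 1476 against 836). Megakaryocyte markers had a median of -0.46 over 6 of 8, B cell markers 0.27 over 7 of 7, T cell markers -0.18 over 3 of 5, and erythroid markers 0.06 over 5 of 7. These shifts stand beside every difference below, and their part in it was not tested.

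Transcripts of the respiratory chain and ATP synthase were mostly slightly less abundant in the knockout sample. Of 86 detected genes 67 were lower and 19 higher, which is 77.9% lower against a background of 50.0% of all 11440 detected genes. Among the 19, Cox8c and Ndufaf5 held the same deposited value on both arrays and counted as higher through the centring alone. The median difference was -0.11, or 7.08% less, against a median of 0.0002 over all detected genes. The members were mostly bright, and 83 lay above the 75th percentile on both arrays. Among these 83 the share of lower genes was 79.5%, against 52.5% of all 6692 genes that bright, whose median was -0.01.

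The differences were small. By at least the SD between probe sets, 14 members were lower (16.3%), against a background of 16.2%, and 2 were higher (2.33%), against a background of 17.3%. By this cutoff the members thus had about the usual share of lower genes and few higher ones. No member was at least 1.5-fold lower (background 1.55%) or 2-fold lower (background 0.21%). Only Cox6a2 was at least 1.5-fold higher (background 2.33%), and it was also past 2-fold (background 0.463%). Against the bright genes alone, 13 of 83 bright members were lower by at least that SD (15.7%, background 15.8%) and 1 higher (1.20%, background 14.8%). None of the 83 was 1.5-fold lower (background 1.15%) or higher (1.45%), and so none was 2-fold lower (0.12%) or higher (0.209%). The SD of the difference was 0.20 over the 86 members and 0.13 over the 83 bright ones, against 0.28 over all detected genes and 0.24 over the bright ones.

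**Figure D1:**
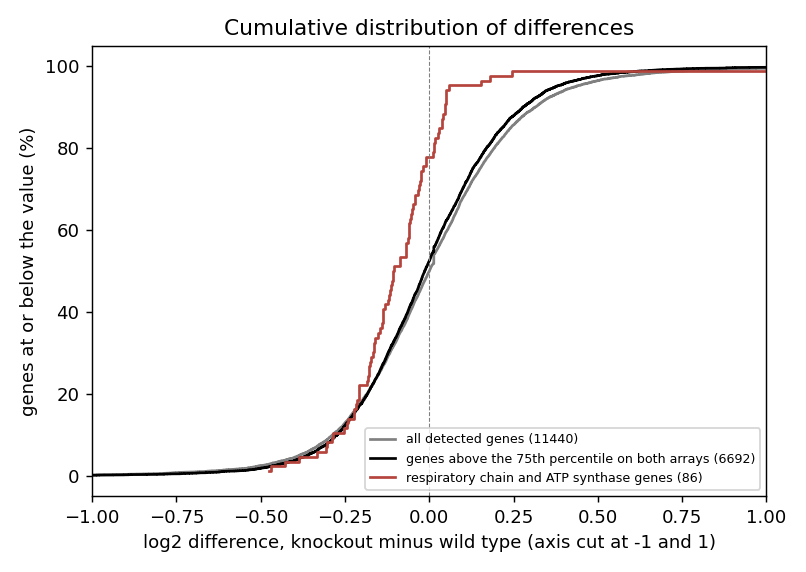
Cumulative share of genes (percent, vertical axis) by log2 difference, knockout minus wild type (horizontal axis), for 86 detected respiratory chain and ATP synthase genes (red), all 11440 detected genes (grey) and the 6692 genes above the 75th percentile on both arrays (black). The red line runs with the other lines at the low end and lies left of them over the middle and most of the upper range, reaching 77.9% at 0; Cox6a2 (1.22) is beyond the axis.

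Intensities of the detected members ran from 50.2 to 10608 over both arrays, and 58 genes were above 1000 on both.

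**Figure D2:**
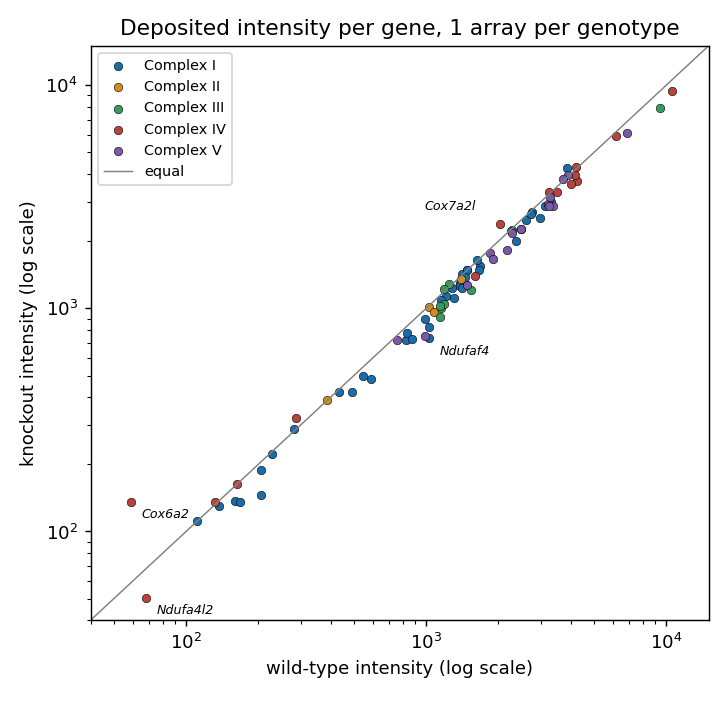
Deposited intensity of the brightest probe set of each detected gene in the wild type (horizontal axis) and the knockout (vertical axis), both on log scales, coloured by complex, with 1 array per genotype. Most points lie just under the line of equal values, while Cox6a2 (136 against 59.0) and Cox7a2l (2382 against 2030) lie above it.

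Complex I, the NADH dehydrogenase, was lower in 34 of its 41 detected genes (82.9%, background 50.0%), with a median of -0.11. Its 6 core subunits measured here, which apart from Ndufs3 carry the flavin or iron-sulphur clusters, had a median of -0.06 with 4 lower. Ndufs3, part of the module that binds coenzyme Q, had an intensity of 728 in the knockout and 876 in the wild type (-0.25). The iron-sulphur subunit gene Ndufs7 had 1236 against 1407 (-0.17, and -0.28 in its other probe set). Ndufs3 was lower by its only probe set and Ndufs7 by both of its own. By their brightest probe sets the other core subunits lay close to 0. Ndufs8 was at -0.04, with 6 probe sets from -0.16 to 0.005, and another probe set of Ndufv2 read -0.18. The largest subunit gene, Ndufs1, had 287 against 281 (0.05), and the flavoprotein genes Ndufv1 and Ndufv2 differed by -0.07 and 0.02. Other probe sets of Ndufv1 read 0.03 and 0.003, and a further probe set of Ndufv2 held the same deposited value on both arrays.

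The 27 detected accessory subunits of complex I, which surround the core and are needed for its stability, had a median of -0.11, with 23 lower. Ndufb2, in the membrane arm, had 828 in the knockout against 1032 in the wild type (-0.30), with -0.36 in another probe set and 0.10 in a dim one. Ndufb10, also of the membrane arm, had 481 against 592 (-0.29), by its only probe set. Ndufb6 was lower in both of its probe sets (-0.22 and -0.41), and so was Ndufab1, the mitochondrial acyl carrier protein (-0.22 and -0.40). These 4 genes were the lowest of the subunits by their brightest probe set, apart from Ndufs3.

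Ndufb11 went the other way. This X-linked membrane arm subunit gave 4260, 3209 and 1631 for the knockout, where the wild type read 3865, 2933 and 1576, with differences of 0.15, 0.14 and 0.06. Its 3 probe sets were all higher in the knockout, and it was the highest gene of complex I, though under the SD between probe sets. Ndufa1, which is X-linked too, had 2983 against 3311 (-0.14). Ndufa6 differed by 0.04.

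Assembly factors of complex I, which help to build the enzyme and are not part of it, had the lowest median of the 3 classes of complex I genes. It was -0.20 over 8 genes, of which 7 were lower. Ndufaf2, a chaperone of late assembly, had an intensity of 146 in the knockout and 205 in the wild type (-0.48), and Ndufaf4, an early factor, had 733 against 1024 (-0.47, and -0.37 in its dimmer probe set). Ndufaf6 had 136 against 167 (-0.29) and Ndufaf1 137 against 160 (-0.21). Ndufaf8 was lower in both probe sets (-0.18 and -0.18). Ndufaf5 held the same deposited value of 111 on both arrays, and its difference of 0.01 comes from the centring alone. Whether assembly factors differ from subunits was not tested.

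Complex II, succinate dehydrogenase, had 3 of 4 genes lower (75%, background 50.0%) and a median close to 0 (-0.02). It is the only one of the 5 with no subunit made in the mitochondrion, and it also serves the tricarboxylic acid cycle. The flavoprotein gene Sdha had 1012 in the knockout against 1029 in the wild type (-0.01), the iron-sulphur gene Sdhb 1361 against 1398 (-0.03) and the membrane anchor gene Sdhc 390 against 387 (0.03). These 3 genes had nearly equal values in both samples. The other anchor gene, Sdhd, had 964 against 1077 (-0.15), with -0.34 in a dimmer probe set (69.3 against 88.5). The median rested on 4 genes and moved with the processing, as the median difference of complex II was 0.03 after quantile normalization, 0.02 after loess on the mean, -0.04 with the median over probe sets and -0.08 over the 3 genes left without _s_at, _x_at and _a_at probe sets, which can bind related sequences.

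Complex III had the lowest median of the 5, -0.17, with 7 of 9 genes lower (77.8%, background 50.0%). Both nuclear genes for subunits that carry electrons were among them. Cyc1, cytochrome c1, had an intensity of 911 in the knockout against 1138 in the wild type (-0.31), and the Rieske iron-sulphur gene Uqcrfs1 had 1025 against 1139 (-0.14), each by a single probe set. All 5 small subunits were lower by their brightest probe sets. Uqcrb, a subunit at the coenzyme Q site, had 7882 against 9429 (-0.25) and -0.35 in a second probe set, and Uqcr10 was lower in each of 3 probe sets (-0.18 to -0.31). Uqcr11 differed by -0.17 and Uqcrh by -0.01, while the other probe set of Uqcrh read 0.003.

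Uqcrq had the lowest value in complex III, but its probe sets disagreed. The bright one had 1207 against 1534 (-0.33), and the dim ones 50.5 against 40.2 (0.34) and 29.0 against 28.4 (0.04), so that the median of its probe sets was 0.04. The core proteins, made from Uqcrc1 and Uqcrc2, are related to processing proteases and carry no electrons. These genes had 1288 against 1249 (0.06) and 1221 against 1191 (0.05), and both probe sets of Uqcrc2 were higher.

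**Figure D3:**
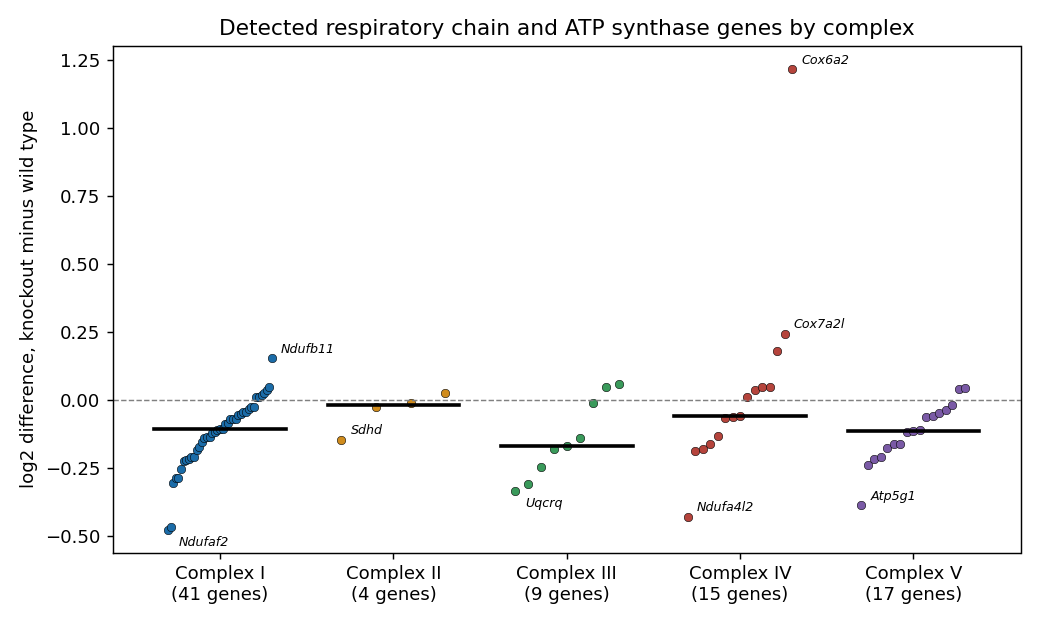
Log2 difference, knockout minus wild type (vertical axis), of each detected gene by complex. Points are genes by their brightest probe set and black bars are medians (-0.11, -0.02, -0.17, -0.06 and -0.11 from complex I to V); Cox6a2 (1.22) lies far above all others.

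Complex IV, cytochrome c oxidase, had 8 of 15 detected genes lower (53.3%), near the background of 50.0%, with a median of -0.06. The other 7 were higher, Cox8c among them through the centring alone. Among 9 subunits common to most tissues 7 were lower. Cox6a1 had 9400 in the knockout against 10608 in the wild type (-0.16), Cox5a was lower in each of 3 probe sets (3715 against 4245 in the brightest, -0.18), and Cox8a had 1394 against 1600 (-0.19). Cox5b was lower in 4 probe sets measured on both arrays (-0.19 to -0.003) and by at least 0.20 in a dim one under the floor in the knockout, and Cox7a2, Cox6c and Cox6b1 were lower in both of theirs (-0.13, -0.06 and -0.06 in the brighter). Cox4i1, the largest nuclear subunit, had 4287 against 4219 (0.04), Cox7c 136 against 132 (0.05) and Ndufa4 3330 against 3250 (0.05). The other probe set of Cox7c, dim and under the floor in the knockout, was lower by at least 0.13.

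Several complex IV subunits have a second form made in heart, skeletal muscle, lung or testis. Of 8 such isoform genes 4 lay under the floor on both arrays: Cox4i2 (14.6 in the knockout, 18.2 in the wild type), Cox7a1 (17.9, 17.1), Cox7b2 (7.93, 6.73) and Cox8b (19.1, 12.2). Cox6a2, the heart and muscle form of subunit 6a, had 136 against 59.0, a 2.33-fold higher value, and 48.2 against 26.8 in its other probe set (0.86). It was above the 75th percentile in the knockout and not in the wild type, and with a floor at that percentile its difference was 0.33. Of 6 striated muscle markers 1 was detected, Ckm at 26.8 against 28.1, and the summed intensity of the list was 87.7 against 85.8. Of 6 detected monocyte and macrophage markers 5 were higher and 1 lower, from Cd14 at -0.04 to Csf1r at 1.40 (770 against 294). The 3 probe sets of Csf1r ran from 0.35 to 1.40, and Adgre1 was under the floor on both arrays. The part of monocytes in the value of Cox6a2 was not tested. The testis form Cox6b2 had 323 against 288 (0.18), Cox8c held 162 on both arrays in its brighter probe set, and Ndufa4l2, a hypoxia-inducible relative of Ndufa4, had 50.2 against 68.2 (-0.43).

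Of the 7 complex IV genes with a difference above 0, Cox7a2l was second to Cox6a2. It encodes a relative of Cox7a2 that helps to join complexes III and IV into supercomplexes. Its 3 probe sets gave 2382, 1260 and 1289 for the knockout, where the wild type read 2030, 1088 and 994 (0.24, 0.22 and 0.39). All 3 were higher, one well past the SD of 0.22 between probe sets and the others close to it, while its relative Cox7a2 was lower in both of its probe sets. Apart from Cox6a2 it was the highest of the 86 genes.

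Complex V, the ATP synthase, was lower in 15 of its 17 genes (88.2%, background 50.0%), with a median of -0.11. Whether its parts differ was not tested, and each part's median lay within the SD of 0.22 between probe sets. In the catalytic head and central stalk, where ATP is made, Atp5a1 had 2214 in the knockout against 2264 in the wild type (-0.02), Atp5b 2172 against 2287 (-0.06), Atp5c1 3975 against 3897 (0.04) and Atp5d 3815 against 3730 (0.05, and -0.09 in its other probe set). These 4 genes had nearly equal values. Atp5e, the smallest part of the central stalk, had 1818 against 2168 (-0.24).

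All 3 genes of the c ring, the rotor that protons turn, were lower. They encode the same mature protein behind different import sequences. Atp5g1, the gene known to vary most with the cell's demand, had 749 in the knockout against 988 in the wild type (-0.39), Atp5g3 had 6079 against 6870 (-0.16) and Atp5g2 2270 against 2479 (-0.11). Of these only Atp5g1 was lower by more than the SD between probe sets. All 4 genes of the peripheral stalk, which holds the head still, were lower too. Atp5h (2884 against 3384, -0.22), Atp5o (1267 against 1478, -0.21) and Atp5pb (3168 against 3276, -0.03) were each lower in both of their probe sets, and Atp5j differed by -0.11. The 5 small membrane subunits ranged from -0.18 (Atp5mpl) to -0.05 (Atp5l).

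Agreement among probe sets was read for genes with several, although probe sets of 1 array are no replicates of a sample. Of 48 members with at least 2 detected probe sets, 28 were lower in every one (58.3%), against a background of 28.6% of 5084 genes. A further 4 were higher in every one (8.33%), against a background of 28.0%: Cox6a2, Cox7a2l, Ndufb11 and Uqcrc2. The other 16 were mixed. Among bright members alone, 28 of 47 were lower in every one (59.6%), against 29.8% of bright genes, and 3 higher in every one (6.38%), against 26.9%. Probe sets disagreed most for Ndufa12, at -0.03, -0.21 and -0.24 in the bright ones but 1.13 in the dimmest (214 against 98.8), followed by Uqcrq and Ndufb2. Over all 161 detected member probe sets 123 were lower, and the median was -0.11.

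**Figure D4:**
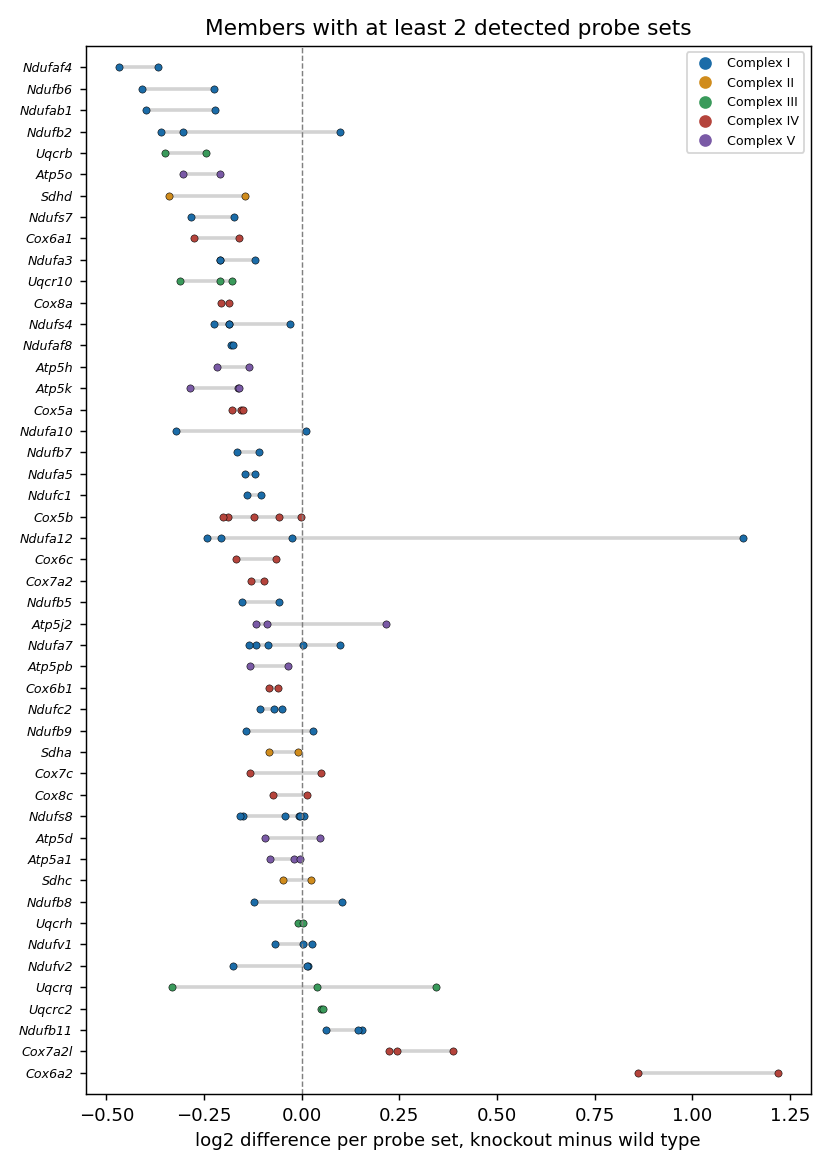
Log2 difference, knockout minus wild type (horizontal axis), of every detected probe set of the 48 members with at least 2, ordered by the median of the gene. Points are probe sets coloured by complex and grey lines join the lowest and highest of a gene; 28 genes lie wholly below 0 and 4 wholly above it.

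Other genes that build and feed the chain were taken from lists by role, each set against the background of 50.0% lower. Of 39 detected assembly factors with other names 32 were lower (82.1%), with a median of -0.14. Higd1a, a small protein that associates with the chain, had 742 in the knockout against 1030 in the wild type (-0.46), and the copper chaperone gene Sco1 35.3 against 47.7 (-0.42). Ttc19, of complex III, had 196 against 142 (0.48, but -0.16 in its other probe set), and the haem A synthase gene Cox15 115 against 90.6 (0.36). The 3 detected probe sets of Cox15 ran from 0.01, the size of the centring shift, to 0.36.

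Of 14 detected genes for cytochrome c and for coenzyme Q synthesis and function 12 were lower (85.7%), with a median of -0.13. Cycs, the mobile carrier between complexes III and IV, had 2077 in the knockout against 3272 in the wild type. It was lower in each of 3 probe sets (-0.55 to -0.64). Coq10b, a coenzyme Q binding protein, had 210 against 355 (-0.74, and -0.56 in its other probe set). By their brightest probe sets these 2 of the 14 genes were at least 1.5-fold lower (background 1.55%). Coq8a (0.28) and Coq8b (0.26), which support coenzyme Q synthesis, were higher.

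Of 13 tricarboxylic acid cycle genes 9 were lower (69.2%), with a median of -0.08. The isocitrate dehydrogenase subunits differed in sign, with Idh3a at -0.42, lower in each of 4 probe sets, Idh3b at 0.21 and Idh3g at 0.10. Malate dehydrogenase, Mdh2, was at -0.20. Of 7 detected carrier and channel genes 5 were lower. Slc25a5, the main ADP/ATP carrier of dividing cells, was lower in each of 8 probe sets (5884 against 7189 in the brightest, -0.28) and the channel gene Vdac1 in each of 4 (-0.17). The phosphate carrier gene Slc25a3 was at 0.08, and Ucp3 was higher by at least 0.51 in its brighter probe set, where the wild type lay under the floor, but at -0.11 in the other.

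Regulators of mitochondrial transcription went both ways, with 11 of 20 detected genes lower and a median of -0.01. The coactivator gene Pprc1 had 118 in the knockout against 162 in the wild type (-0.44), and Ppargc1b 194 against 238 (-0.28). Ppargc1a, the best known of that family, was under the floor on both arrays (16.1 and 12.3). Mterf1a was at 0.35, and Nrf1, an activator of many respiratory chain genes, at 0.25, with its 4 probe sets from -0.003 to 0.25. Subunits made in the mitochondrion were represented by ND5 alone, with 5260 against 5123 (0.05).

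**Figure D5:**
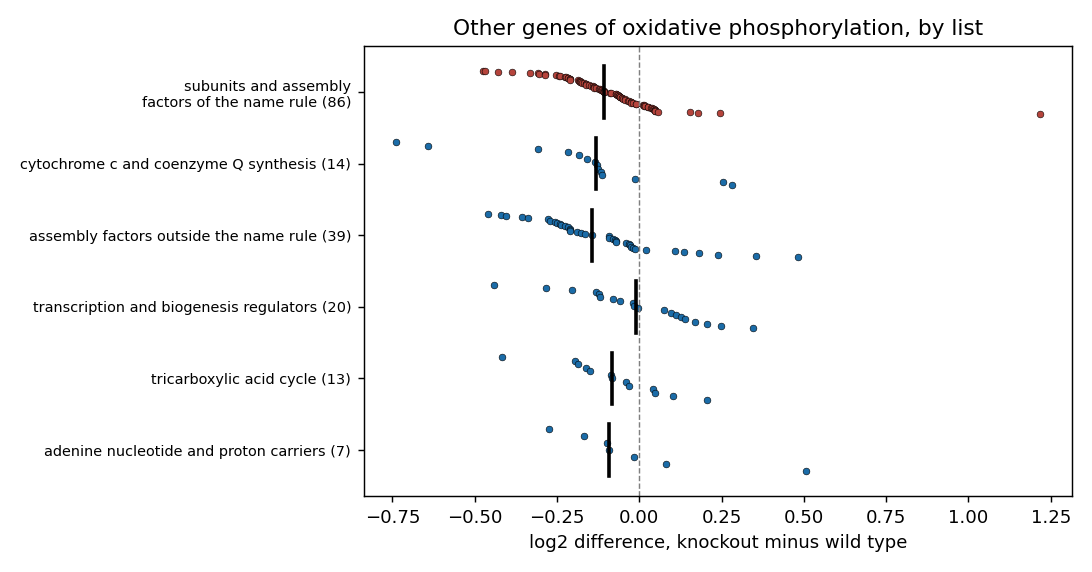
Log2 difference, knockout minus wild type (horizontal axis), of each detected gene in the set chosen by symbol (red, 86 genes) and in 5 lists of other genes of oxidative phosphorylation (blue). Black bars are medians, which lie between -0.14 and -0.01 for the 5 lists.

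Promoters of these genes are known to be bound by NRF1, by ETS factors such as GABP and by YY1. RefSeq promoter windows (GRCm38.p6, 250 bases before to 50 after the start) were listed for 74 of the 91 genes, 5 of them with more than 1 start. Both strands were searched for GCGCA and GCGC set 1 base apart (NRF1), for CCGGAAG (ETS) and for AAGATGGCG (YY1). The ETS and YY1 letters can share AAG. The NRF1 letters stood in 17 of the 74 genes (23.0%), against 5.19% of all 27025 genes with a promoter window and 11.7% of detected genes. The ETS letters stood in 19 (25.7%), against 9.93% of all these genes and 20.2% of detected genes. The YY1 letters stood in 7 (9.46%), against 1.64% and 3.65%. The letters CCAAT (43.2%) and TATAAA (10.8%) were found in 42.5% and 8.83% of detected genes. A match of letters is a description and does not show that a factor binds.

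Of the detected members with ETS letters 19 of 19 were lower (median -0.16), and of those without them 39 of 51 (median -0.09). Of all detected genes with ETS letters 54.2% were lower, and of those without them 49.1%. With NRF1 letters 12 of 16 members were lower (median -0.13), and without them 46 of 54 (median -0.11). With YY1 letters 7 of 7 members were lower (median -0.14), and without them 51 of 63 (median -0.11). With CCAAT 25 of 29 were lower (median -0.06), and without it 33 of 41 (median -0.12), while with TATAAA 6 of 6 were lower (median -0.10), and without it 52 of 64 (median -0.11). Of all detected genes with NRF1, YY1, CCAAT or TATAAA letters 51.9%, 53.0%, 50.5% and 48.0% were lower. None of these contrasts was tested. The sequences are the 250 bases before the start of 3 genes that hold both NRF1 and ETS letters there, all lower, and of the lowest and the highest gene in the promoter table whose detected probe sets, 2 or more, had 1 direction. Capitals mark the NRF1 and ETS letters, which do not overlap. The windows are Atp5h (chr11:115419920-115420169, minus strand), Cox6a1 (chr5:115348959-115349208, minus strand), Sdhd (chr9:50603850-50604099, minus strand), Ndufaf4 (chr4:24897833-24898082, plus strand) and Cox7a2l (chr17:83514334-83514583, minus strand).
Atp5h: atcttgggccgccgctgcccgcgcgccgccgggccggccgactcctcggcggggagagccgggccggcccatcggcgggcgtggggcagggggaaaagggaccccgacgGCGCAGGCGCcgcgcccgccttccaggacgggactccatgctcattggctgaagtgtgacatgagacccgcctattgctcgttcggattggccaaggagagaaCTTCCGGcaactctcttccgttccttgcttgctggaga
Cox6a1: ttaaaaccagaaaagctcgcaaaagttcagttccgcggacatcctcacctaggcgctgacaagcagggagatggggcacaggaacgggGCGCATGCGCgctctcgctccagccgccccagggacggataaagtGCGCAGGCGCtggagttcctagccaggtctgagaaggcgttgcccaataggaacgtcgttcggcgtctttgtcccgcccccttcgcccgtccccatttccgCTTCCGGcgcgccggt
Sdhd: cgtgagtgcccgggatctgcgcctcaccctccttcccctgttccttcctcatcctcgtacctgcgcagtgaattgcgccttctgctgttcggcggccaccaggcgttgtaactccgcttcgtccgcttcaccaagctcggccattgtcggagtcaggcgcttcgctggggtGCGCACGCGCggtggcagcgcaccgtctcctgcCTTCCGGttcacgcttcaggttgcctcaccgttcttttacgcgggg
Ndufaf4: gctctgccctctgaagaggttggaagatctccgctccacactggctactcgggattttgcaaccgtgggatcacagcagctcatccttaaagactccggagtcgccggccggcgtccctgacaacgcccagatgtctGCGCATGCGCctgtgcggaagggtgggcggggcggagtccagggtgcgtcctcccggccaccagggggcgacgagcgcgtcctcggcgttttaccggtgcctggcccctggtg
Cox7a2l: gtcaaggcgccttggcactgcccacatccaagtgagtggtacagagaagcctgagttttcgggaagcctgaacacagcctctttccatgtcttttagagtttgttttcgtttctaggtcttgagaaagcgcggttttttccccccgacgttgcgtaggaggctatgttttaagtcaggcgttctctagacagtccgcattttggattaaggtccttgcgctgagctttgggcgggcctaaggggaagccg

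In Atp5h (-0.22), Cox6a1 (-0.16) and Sdhd (-0.15) the ETS letters began 38, 16 and 46 bases before the start. Ndufaf4 (-0.47) held the NRF1 letters once, beginning 113 bases before the start, and Cox6a1 held them at 2 places, 162 and 117 bases before it. The window of Cox7a2l (0.24) held none of the 3.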

How the data were processed

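The deposited values are linear intensities, 1 for each probe set on each array. MAS5 is the only program in the submitters' processing notes, with no version, and 5.63% of probe sets (4 of the 180 described here) held the same value on both arrays, so the summarisation is not settled. Cy3-labelled cRNA was hybridised to Affymetrix arrays, per the labels' protocols. Precision is limited by the number of arrays, 1 per genotype.

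Probe sets were named through the platform annotation: 34945 had 1 gene, 932 several and 9160 none. Intensities were converted to log2 and centred on the median difference of detected gene probe sets (shift -0.01). Values under the floor, each array's median after centring, were set to it. That median was 25.9 before centring in the knockout and 25.2 in the wild type. A gene was represented by its brightest probe set. Of the members, 47 detected genes rested on probe sets of the _s_at, _x_at or _a_at classes, which can bind related sequences, and 10 have a listed pseudogene.

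The genes named were the 3 lowest and 3 highest per complex, members past 1.5-fold, complex II, Cyc1, the isoform families, the 3 with most discordant probe sets and the 2 lowest and highest of each list. Others were chosen after their values were seen. Members and lists were chosen with earlier results of these data known. Computation used Python 3.11.15, pandas 2.3.3 and statsmodels 0.14.6 (loess), and was tested on simulated data.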

Additional observations from a re-analysis of the deposited data

How the results depend on the processing

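No paired analysis was possible because each genotype has 1 array. Over 10 alternatives the median difference of all member genes stayed below 0, from -0.13 without _s_at, _x_at and _a_at probe sets to -0.07 after quantile normalization (-0.071) and after loess (-0.072), and the members lower numbered 54 of 66 without those probe sets and 62 to 71 otherwise. The median difference of complex II was above 0 after quantile normalization (0.0296), after loess (0.0224) and with the 75th percentile as floor (0.0020), and lowest, at -0.0835, without those probe sets. The median difference of complex IV was above 0 without a floor (0.013), where the dim isoforms enter. The number of member genes at least 1.5-fold lower or higher was 2 with the 25th percentile as floor and 2 with none (Cox8b entered in both), 2 when cross-hybridising classes were dropped (Ndufa12 entered at 1.13), 0 with the 75th percentile as floor and, in an alternative chosen after seeing the data, 0 without the tissue-restricted isoforms. Of 86 genes, 56 were lower and 11 higher under every alternative that measured them, and 19 changed sign in at least 1. Of the 19, Uqcrq (0.34), Ndufb2 (0.10) and Ndufb8 (0.10) turned when those classes were dropped; the causes were not tested.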

Other observations

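Probe sets assigned to a member together with another gene or a pseudogene were outside the comparison. Of 10 such probe sets 8 were detected and 7 of these were lower in the knockout, with a median of -0.22. Among them were complex I genes with no detected probe set of their own. The probe set of Ndufs6, which lies in the iron-sulphur module, and its copy Ndufs6b had 691 in the knockout against 815 in the wild type (-0.22), that of Ndufa11 and Ndufa11b 537 against 629 (-0.21, while a dimmer one read 49.6 on both arrays), and those of Ndufb4 and its copies 812 against 858 (-0.07) and 761 against 831 (-0.11). The probe set shared by Ndufab1 and its pseudogene had 1085 against 1415 (-0.37).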
